A study of Mus musculus with 6 samples.

Results

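Penk and Pcp4 are 2 of the 27734 genes in an RNA sequencing study of mouse rib chondrocytes, and both were among the 14012 genes averaging 1 FPKM or more, which entered the tests. They were chosen by the FPKM difference between the mutant and wild-type libraries of this comparison, strong in both and opposite in direction, so all values of that difference are given as a description and without a test. FPKM is the number of fragments relative to the length of the gene model and to all mapped fragments of the library, and the values are used as the authors deposited them. The cells were rib chondrocytes of E18.5 mouse embryos, late in gestation, collected on isolation without culture. The 3 mutant libraries (MUT columns 0, 1 and 2) are labelled Jab1flox/flox; Col2a1-Cre, a conditional knockout in which Cre recombinase driven by the Col2a1 promoter removes floxed Jab1 from the chondrocyte lineage, and the 3 wild-type libraries (WT columns 0, 1 and 2) are labelled wild type with no further allele. Cells that never expressed Col2a1 keep Jab1 in such a mutant. Jab1 is the product of Cops5 and the catalytic part of the COP9 signalosome, which strips the ubiquitin-like protein Nedd8 from cullins. The labels do not say whether the libraries came from separate embryos, so the error behind each p-value is that among these 6 libraries and may be technical.

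Penk encodes proenkephalin, a secreted precursor that convertases cut at pairs of basic residues into enkephalins, short peptides that act mainly on the delta and mu opioid receptors. It is best known from neurons and the adrenal medulla, and it is also transcribed in non-neuronal mesenchymal cells of developing tissues. Pcp4, also called PEP-19, is a small protein of Purkinje cells and other neurons that binds calmodulin, the main intracellular calcium sensor, through an IQ motif and speeds the exchange of calcium on it.

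The coding sequences show why these are different kinds of gene product, and both were read from GENCODE M21 transcripts on the GRCm38 (mm10) build. The Penk transcript has 1449 bases in 2 exons and encodes 268 codons. A search of its reading frame for successive codons of tyrosine, glycine, glycine and phenylalanine, the core of every enkephalin, found 7 units, of which 6 are followed by a methionine codon and 1 by a leucine codon. All 7 units have a pair of codons for basic residues just before them. The stretch shown lies at chr4:4134067-4134354 on the minus strand, covers coding bases 292 to 579 and holds 4 of the 7 units, with the 5 codons of each enkephalin in capitals.
Penk coding stretch: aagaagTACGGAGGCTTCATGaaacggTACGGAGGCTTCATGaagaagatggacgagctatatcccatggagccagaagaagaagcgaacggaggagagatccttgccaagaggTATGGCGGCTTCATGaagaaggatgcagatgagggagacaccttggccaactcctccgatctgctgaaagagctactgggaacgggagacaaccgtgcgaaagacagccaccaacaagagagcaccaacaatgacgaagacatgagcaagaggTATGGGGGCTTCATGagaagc
The Pcp4 transcript has 641 bases in 3 exons and encodes 62 codons. Its whole coding sequence is shown without the stop codon, spliced from exons between chr16:96467782-96525514 on the plus strand, with the 1 match to the IQ motif, codons 46 to 56, in capitals.
Pcp4 coding sequence: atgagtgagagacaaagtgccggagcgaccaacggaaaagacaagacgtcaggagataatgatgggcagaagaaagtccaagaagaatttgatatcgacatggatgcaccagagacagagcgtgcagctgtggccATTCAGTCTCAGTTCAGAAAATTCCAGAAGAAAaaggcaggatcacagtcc

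Before any difference was read, the libraries were checked against their labels. Cops5 stood at 17.0, 18.0 and 17.2 FPKM in MUT columns 0, 1 and 2, against 42.3, 39.8 and 40.1 FPKM in WT columns 0, 1 and 2, so its transcript was lower but still measured in the mutants. Of 14 chondrocyte markers, 10 were measured and tested, and their summed level was 4581 to 7980 FPKM in MUT libraries and 7009 to 7973 FPKM in WT libraries, with Comp and Matn3 the 2 that fell. Of all genes tested, 2.59% fell. The groups differ in sex-linked transcripts. The summed level of the Y-linked genes Ddx3y, Eif2s3y, Kdm5d and Uty was 14.6, 82.8 and 71.7 FPKM in MUT columns 0, 1 and 2, against 0.214, 0.0281 and 0.639 FPKM in WT columns 0, 1 and 2. Xist, transcribed from the inactive X chromosome, was at 37.3 FPKM in MUT column 0, at 0.0176 and 0.0244 FPKM in MUT columns 1 and 2, and at 63.1 to 65.9 FPKM in WT libraries. MUT column 0 carries both kinds of transcript. It also stands apart in the immediate early gene Fos, at 587, 18.3 and 20.0 FPKM in MUT columns 0, 1 and 2 and 9.73, 8.60 and 14.9 FPKM in WT columns 0, 1 and 2. The differences, ranks and calls of Penk, Pcp4, the pathway lists, the chromosome neighbours and the marker lists were therefore also computed without this library and with the mean Y-linked level as a covariate. Of the chondrocyte markers, Acan, Comp and Sox6 were called lower without MUT column 0, and 0 were called with the covariate. Those fits called 666 of 13957 and 236 of 14012 genes, in either direction.

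Penk (ENSMUSG00000045573.9, chr4:4133531-4138819, minus strand) was at 77.0, 79.3 and 66.2 FPKM in MUT columns 0, 1 and 2, against 15.8, 14.6 and 14.4 FPKM in WT columns 0, 1 and 2. Every MUT library was above every WT library, and the lowest MUT value was 4.20 times the highest WT value. The mean level was 74.2 ± 7.01 FPKM in MUT and 14.9 ± 0.731 FPKM in WT (SD, n = 3 each), a ratio of 4.97. On the log2(FPKM + 1) scale, which is used for all differences and understates those of low genes, Penk was higher in MUT by 2.23 (SE 0.09). The libraries of a group lay close together, with a coefficient of variation of 9.45% in MUT and 4.89% in WT. Groups without overlap were found for 32.2% of the genes tested, and 16.3% had every MUT library above every WT library, and this share says nothing about Penk, which was chosen for that pattern.

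Pcp4 (ENSMUSG00000090223.1, chr16:96467606-96525793, plus strand) was at 1.23, 1.40 and 0.566 FPKM in MUT columns 0, 1 and 2, against 37.7, 21.6 and 23.1 FPKM in WT columns 0, 1 and 2. Every MUT library was far below every WT library, and the lowest WT value was 15.4 times the highest MUT value. The mean level was 1.06 ± 0.440 FPKM in MUT and 27.5 ± 8.92 FPKM in WT (SD, n = 3 each), which is 25.8-fold lower in MUT. The difference on the log2(FPKM + 1) scale was -3.77 (SE 0.26). Of all genes tested, 15.9% had every MUT library below every WT library, and Pcp4 was again chosen for this pattern. In these bulk cells a lower level cannot be divided into fewer cells that transcribe Pcp4 and less transcript per cell.

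Relative to the level of the gene, the spread within groups was wider for Pcp4 than for Penk. For Pcp4 the highest library of a group was 2.47 times the lowest in MUT and 1.75 times in WT, whereas for Penk these ratios were 1.20 and 1.09. The WT spread of Pcp4 comes from WT column 0, whose title carries a different day number (30, against 24 in the other libraries). Without that library the Pcp4 difference was -3.52 (SE 0.21), and without MUT column 0 it was -3.83 (SE 0.32). The corresponding Penk differences were 2.27 (SE 0.10) without WT column 0 and 2.21 (SE 0.10) without MUT column 0.

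The MUT library with Xist transcripts did not stand apart from the other MUT libraries in either gene: Penk in MUT column 0 lay between its levels in columns 2 and 1, and so did Pcp4. With the mean Y-linked level as a covariate, the difference was 2.35 (SE 0.24) for Penk and -3.51 (SE 0.73) for Pcp4. Because every MUT library has more Y-linked transcript than every WT library, genotype and sex cannot be fully told apart in this design.

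**Figure D1:**
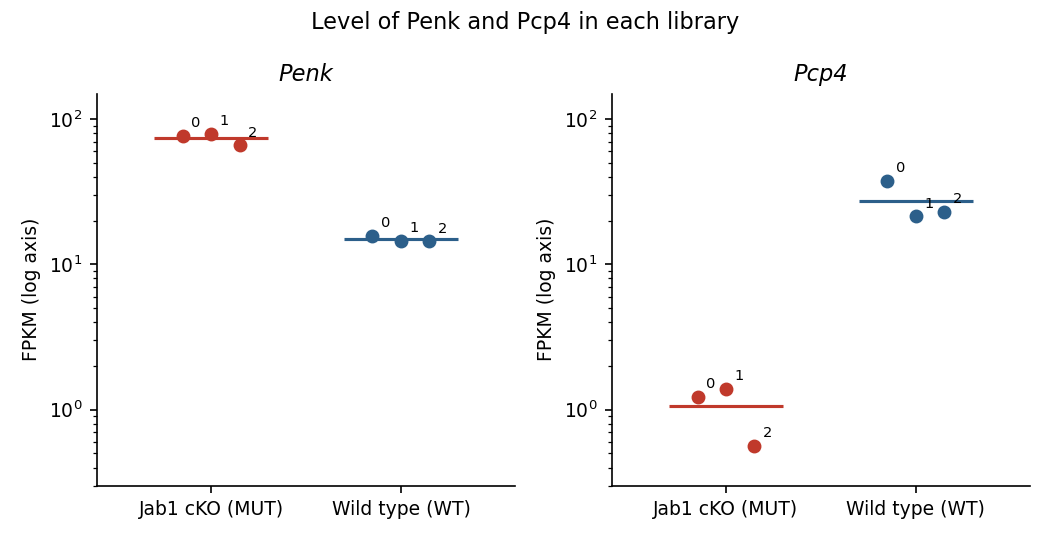
Level of Penk (left) and Pcp4 (right) in FPKM on a log axis in each library, with MUT left of WT. Points are the 3 libraries of a group and bars the group mean. Penk lies at 66.2 to 79.3 FPKM in MUT and 14.4 to 15.8 FPKM in WT, and Pcp4 at 0.566 to 1.40 FPKM in MUT and 21.6 to 37.7 FPKM in WT.

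The opposite changes inverted the order of the genes. Penk was 62.7, 56.7 and 117 times the Pcp4 level in MUT columns 0, 1 and 2, per length of gene model. In WT columns 0, 1 and 2, Penk was 0.418, 0.677 and 0.625 times the Pcp4 level. Pcp4 was therefore the higher of the pair in every WT library and the lower in every MUT library.

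Set against all 27734 genes of the same library, Penk ranked 976, 941 and 1153 by FPKM in MUT columns 0, 1 and 2, and 4566, 5004 and 4928 in WT columns 0, 1 and 2. It thus stood at or above 96.5, 96.6 and 95.8% of genes in MUT and 83.5, 82.0 and 82.2% of genes in WT, so it was well transcribed in WT cells as well. Pcp4 ranked 13057, 12655 and 14911 in MUT columns 0, 1 and 2, and 2012, 3565 and 3273 in WT columns 0, 1 and 2. Pcp4 stood at or above 52.9, 54.4 and 46.2% of genes in MUT, near the middle of a list that includes many genes at 0, and at or above 92.7, 87.1 and 88.2% of genes in WT.

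Ordered by the log2 difference among the 14012 genes tested, Penk was number 106 from the highest and Pcp4 number 20 from the lowest. Many of the genes beyond them were listed at 0 in a whole group. Of the 105 genes above Penk, 65 were listed at 0 in every library of a group, 37 were protein-coding, 4 were on the Y chromosome, and 12 were protein-coding and not listed at 0 in a whole group. Of the 19 genes beyond Pcp4, 11 were listed at 0 in every library of a group, 6 were protein-coding and 5 were protein-coding without being listed at 0 in a whole group. An exact 0 in such values can be a failed estimate, and 177 tested genes were listed at 0 throughout MUT and 215 throughout WT. Among the 11024 protein-coding genes not listed at 0 in a whole group, Penk ranked 13 from the highest and Pcp4 ranked 6 from the lowest.

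The genes next to them in the full order were mostly short RNAs. Mir6937, Kdm5d and Gm23134 stood just above Penk, and Mir6912, Gm22581 and Gm25323 just below it. Snord58b, Snora9 and Snord111 differed slightly more than Pcp4, and Mir7033, Stfa2 and Gm25520 slightly less. With the mean Y-linked level as a covariate, Penk was number 390 and Pcp4 number 159 in their directions.

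**Figure D2:**
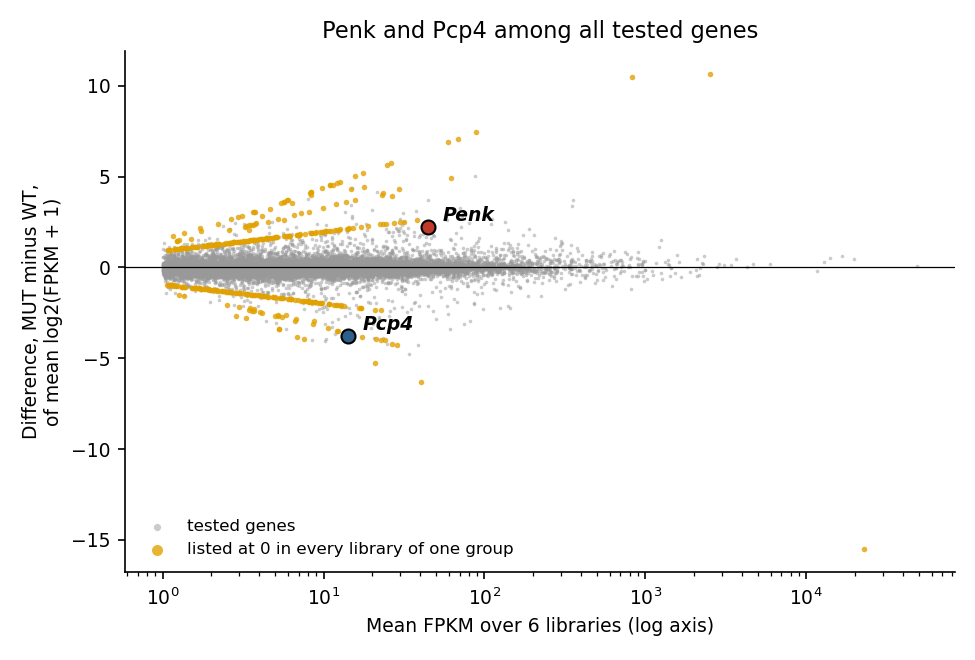
Difference of mean log2(FPKM + 1), MUT minus WT, against mean FPKM on a log axis for the 14012 genes tested. Penk at 2.23 and Pcp4 at -3.77 are marked, and genes listed at 0 in every library of a group are drawn in their own colour.

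The tested genes nearest to them on the chromosome did not pass the test. None of these lay within 100 kb of Penk or Pcp4. Those on the right lay 623.7 to 2052.3 kb from Penk and 1265.7 to 1351.4 kb from Pcp4. Itgb2l, Igsf5 and Dscam, listed within 100 kb of Pcp4, were below the filter and not tested. Itgb2l was at 0.0157, 0 and 0 FPKM in MUT columns 0, 1 and 2, against 0.176, 0.0550 and 0.376 FPKM in WT columns 0, 1 and 2. The 3 nearest tested genes on each side of Penk and of Pcp4 gave 0 calls among 12 genes, in a comparison in which limma with Benjamini-Hochberg adjustment called 6.07% of genes (850 of 14012) at an adjusted p under 0.05. The nearest on the left of Penk, the gene model Gm11808, was at 2.46, 2.09 and 2.87 FPKM in MUT columns 0, 1 and 2, against 0.444, 1.75 and 0.620 FPKM in WT columns 0, 1 and 2. Its groups did not overlap and its difference, 0.90 (SE 0.27), had the sign of that of Penk, with an unadjusted p of 0.018 and a limma adjusted p of 0.12. Fam110b, to the right of Penk, was at 4.10, 5.07 and 4.70 FPKM in MUT columns 0, 1 and 2, against 3.73, 3.21 and 3.25 FPKM in WT columns 0, 1 and 2, also without overlap, with a difference of 0.35 (SE 0.10), an unadjusted p of 0.014 and a limma adjusted p of 0.11. Next to Gm11808, the mitochondrial protein gene Chchd7 was at 45.7 ± 4.84 FPKM in MUT and 53.1 ± 3.32 FPKM in WT (limma adjusted p = 0.24). On the right of Penk, Impad1, a Golgi phosphatase gene needed for cartilage sulfation, was at 102 ± 12.6 FPKM in MUT and 104 ± 1.87 FPKM in WT (limma adjusted p = 0.88). Hmgn1, a nucleosome-binding protein gene to the left of Pcp4, was at 48.5 ± 3.92 FPKM in MUT and 47.9 ± 2.26 FPKM in WT (limma adjusted p = 0.94). Without MUT column 0, 0 of the 11 neighbours tested were called, and with the mean Y-linked level as a covariate 1 of 12 was, Mir6964 to the right of Pcp4, which was above 0 in MUT column 0 only.

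A830012C17Rik overlaps Penk on the opposite strand. Its level was 0.299, 0.557 and 0.312 FPKM in MUT columns 0, 1 and 2, against 0.225, 0.286 and 0.330 FPKM in WT columns 0, 1 and 2, far below Penk in every library. Libraries were stranded per the labels' protocols, but whether the counting used strand is not given in the sources used here, so reads of the pair may have been shared.

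Penk was the only member of its family of opioid peptide precursors that reached a mean of 1 FPKM over the 6 libraries. The genes for prodynorphin, proopiomelanocortin and pronociceptin (Pdyn, Pomc and Pnoc) together summed to 0.981 to 1.46 FPKM in MUT libraries and 0.632 to 0.858 FPKM in WT libraries, so none entered the test. Most of each sum was Pomc. It was at 0.902, 1.44 and 0.981 FPKM in MUT columns 0, 1 and 2, against 0.584, 0.841 and 0.667 FPKM in WT columns 0, 1 and 2, without overlap. Among 12 other neuropeptide precursors, 8 were measured and 2, Adm and Nmb, were tested, and neither passed.

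Transcripts of the receptors measured were scarce, apart from those of the intracellular opioid growth factor receptor. Oprm1, the mu opioid receptor gene, was not analysed here. Of the 4 tested receptor genes none passed. Oprd1, the delta opioid receptor gene, was at 1.53 ± 0.0416 FPKM in MUT and 1.06 ± 0.124 FPKM in WT (SD, n = 3 each; limma adjusted p = 0.23). Ogfr was at 58.0 ± 5.63 FPKM in MUT and 47.9 ± 1.14 FPKM in WT (limma adjusted p = 0.13). Ackr3, an atypical chemokine receptor that also takes up opioid peptides, averaged 3.95 ± 0.784 FPKM in MUT and 2.12 ± 1.36 FPKM in WT (limma adjusted p = 0.25).

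Of enzymes that mature or degrade enkephalins, none of the 6 tested passed. Of 10 processing and granule genes measured, 3 were tested, and the convertase genes Pcsk1 and Pcsk2 were below the filter. Pcsk1 averaged 0 FPKM in MUT and 0.0046 FPKM in WT, and Pcsk2 averaged 0.201 FPKM in MUT and 0.157 FPKM in WT. Cpe, the carboxypeptidase that trims basic residues from cut precursors, was at 512, 300.3 and 298 FPKM in MUT columns 0, 1 and 2, against 164, 251 and 244 FPKM in WT columns 0, 1 and 2. Its groups did not overlap, MUT column 0 was far above the other MUT libraries, and limma's adjusted p was 0.18. Ctsl, a cathepsin that can process proenkephalin, was at 104 ± 14.5 FPKM in MUT and 90.1 ± 8.20 FPKM in WT (limma adjusted p = 0.39). Mme, which encodes the enkephalin-degrading neprilysin, was at 3.53 ± 1.97 FPKM in MUT and 1.67 ± 0.339 FPKM in WT (limma adjusted p = 0.24). The other tested enkephalin-cleaving peptidase genes, Npepps and Lnpep, went the other way without overlap. Their differences were -0.28 and -0.22 (limma adjusted p = 0.14 and 0.16).

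Penk is a textbook target of factors that bind cAMP response elements and AP-1 sites, and of the 12 genes listed for them all were tested. Fosl1, a Fos-family subunit of AP-1, was the 1 that passed. It was at 3.18, 2.81 and 2.73 FPKM in MUT columns 0, 1 and 2, against 0.452, 1.21 and 0.288 FPKM in WT columns 0, 1 and 2. The groups did not overlap, and Fosl1 rose by 1.28 (SE 0.23; limma adjusted p = 0.038). The call held in 1 of the 6 fits that left out a library, the one without WT column 1, with adjusted p between 0.029 and 0.12. Creb1, the cAMP response element binding factor, was at 16.7 ± 0.336 FPKM in MUT and 16.3 ± 0.787 FPKM in WT (limma adjusted p = 0.79).

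Fosb, Jun and Junb were highest in the MUT library that stands apart. Fosb was at 177, 5.68 and 7.24 FPKM in MUT columns 0, 1 and 2, and at 3.16, 2.70 and 6.32 FPKM in WT columns 0, 1 and 2. Jun, at 122, 17.7 and 21.2 FPKM in those MUT columns and 13.5, 15.3 and 13.5 FPKM in those WT columns, had the same shape. Penk in MUT column 0, at 77.0 FPKM, lay between the 66.2 and 79.3 FPKM of the other MUT libraries. The part of these factors in the Penk difference was not tested. Over all opioid-side lists, 24 of 44 measured genes were tested, with 1 higher, 0 lower and a median difference of 0.28, where 3.48% of all tested genes were higher, 2.59% were lower, and the median over all was -0.004. The 12 CRE and AP-1 factors are among the 24, with a median of 0.65. List medians were 0.28 for receptors, 0.20 for processing genes, -0.22 for peptidases and -0.28 for other neuropeptide precursors, so the lists did not share a direction.

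Calm2 and Calm3, which encode calmodulin, were abundant and did not pass the test. Calm2 was at 140 ± 7.03 FPKM in MUT and 133 ± 12.2 FPKM in WT (SD, n = 3 each; limma adjusted p = 0.65). Calm3 was at 107 ± 1.79 FPKM in MUT and 110 ± 10.2 FPKM in WT (limma adjusted p = 0.84). Calml4, a calmodulin-like light chain gene, was at 4.24, 5.72 and 3.04 FPKM in MUT columns 0, 1 and 2, against 10.1, 9.21 and 11.6 FPKM in WT columns 0, 1 and 2. Its groups did not overlap and Calml4 fell by 1.11 on the log2 scale (SE 0.20; limma adjusted p = 0.038).

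The tested genes of small IQ-motif proteins related to Pcp4 gave no call. Pcp4l1, its closest relative, was at 7.89, 3.30 and 2.73 FPKM in MUT columns 0, 1 and 2, against 1.87, 2.41 and 3.07 FPKM in WT columns 0, 1 and 2. The groups overlapped, with the highest value in MUT column 0 (limma adjusted p = 0.34). Nrgn, which encodes neurogranin, was at 2.87 ± 1.49 FPKM in MUT and 1.54 ± 0.462 FPKM in WT (limma adjusted p = 0.31), and Gap43 was below the filter.

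Of 26 calmodulin-dependent enzymes and regulators, 19 were tested and 3 fell. Nos1, the neuronal nitric oxide synthase gene, was at 1.03, 0.782 and 0.384 FPKM in MUT columns 0, 1 and 2, against 3.30, 3.64 and 3.20 FPKM in WT columns 0, 1 and 2. The groups were well apart and Nos1 fell by 1.36 on the log2 scale (SE 0.17; limma adjusted p = 0.018). Camkk1, a kinase that activates other calmodulin-dependent kinases, was at 1.13, 1.54 and 1.38 FPKM in MUT columns 0, 1 and 2, against 2.97, 2.75 and 2.61 FPKM in WT columns 0, 1 and 2, and fell by 0.69 on the log2 scale (SE 0.12; limma adjusted p = 0.036). Camk2g, a subunit of calmodulin kinase II, was at 8.72, 8.95 and 10.2 FPKM in MUT columns 0, 1 and 2, against 12.5, 13.0 and 12.4 FPKM in WT columns 0, 1 and 2. Neither Camkk1 nor Camk2g overlapped between groups, and Camk2g fell by 0.41 on the log2 scale (SE 0.08; limma adjusted p = 0.041).

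Among those that did not pass were Rcan1, an inhibitor of calcineurin, at 28.6 ± 10.5 FPKM in MUT and 14.2 ± 1.98 FPKM in WT (limma adjusted p = 0.10), and Ppp3ca, a calcineurin catalytic subunit, at 88.8 ± 11.8 FPKM in MUT and 68.7 ± 4.23 FPKM in WT (limma adjusted p = 0.13). Over the calmodulin-side lists, 26 of 34 genes were tested, with 0 higher, 4 lower and a median difference of 0.02, beside 2.59% of all tested genes lower. At an unadjusted p under 0.05, 15 of the 50 tested genes of both sides passed, beside 24.7% of all tested genes. These calls were often lost when 1 library was left out. Nos1 was called in 2 of the 6 such fits, those without MUT column 0 and without MUT column 2 (limma adjusted p 0.023 to 0.083 over the 6), and Calml4 in 1, that without MUT column 1 (0.038 to 0.13). Camkk1 (0.055 to 0.12) and Camk2g (0.066 to 0.13) were called in 0 of the 6. Other calls were gained: without MUT column 0, Junb and Ppp3ca were called higher. When the mean Y-linked level was a covariate, 0 of the 5 called genes passed (limma adjusted p 0.15 to 0.32). The difference was then 1.59 for Fosl1, -1.21 for Calml4, -1.02 for Camkk1 and -0.57 for Camk2g, each as large as or larger than without the covariate, and -0.79 for Nos1, which was smaller. In that fit Fos, Fosb, Jun, Junb, Atf3 and Rcan1 were called higher and Camk1 lower. Within MUT the summed Y-linked level was 14.6, 82.8 and 71.7 FPKM in columns 0, 1 and 2, so this fit leans on MUT column 0. The genes it called higher all had their highest level in that library, such as Atf3 at 46.7, 9.69 and 8.32 FPKM in MUT columns 0, 1 and 2. Camk1 had its lowest level there. These calls cannot be told apart from the values of that 1 library.

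**Figure D3:**
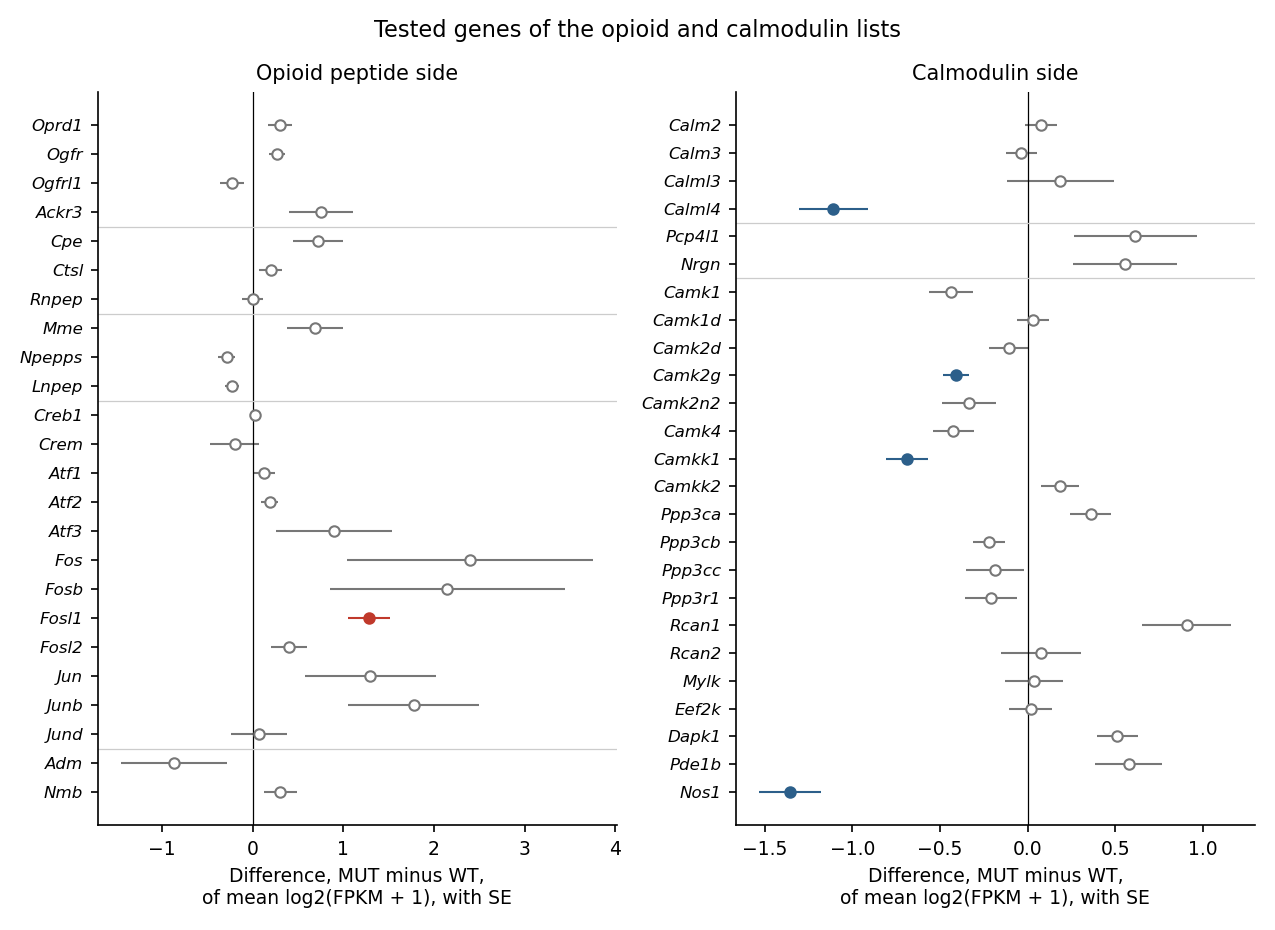
Difference of mean log2(FPKM + 1), MUT minus WT, with its standard error, for tested genes of the opioid-side and calmodulin-side lists. Filled points are the 5 called genes: Fosl1 at 1.28, and Camk2g, Camkk1, Calml4 and Nos1 at -0.41 to -1.36.

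The genes whose profile over the 6 libraries was most like that of Penk were found by the root-mean-square difference of log2(FPKM + 1), each gene centred on its own mean. Among the 5 nearest were Peak1, Gem, Ikzf5 and Crip2, at root-mean-square differences of 0.0702, 0.215, 0.239 and 0.264. Peak1 and Ikzf5 were listed at 0 in every WT library. Gem, a small GTPase gene, was at 9.37, 10.3 and 11.0 FPKM in MUT columns 0, 1 and 2, against 1.29, 2.09 and 1.53 FPKM in WT columns 0, 1 and 2. Crip2, a LIM-domain protein gene, was at 52.1, 45.3 and 53.1 FPKM in those MUT columns, against 12.1, 15.4 and 11.5 FPKM in those WT columns. Gem and Crip2 were high in every MUT library and low in every WT library, which the likeness to Penk already requires.

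The 5 genes nearest to Pcp4 were less like it: Stfa1, Stfa3, Retnlg, Stfa2l1 and Hbb-bs, at root-mean-square differences of 0.468, 0.538, 0.595, 0.607 and 0.663. Stfa1, a stefin gene of myeloid cells, was at 0, 0.144 and 0 FPKM in MUT columns 0, 1 and 2, against 18.1, 8.04 and 24.6 FPKM in WT columns 0, 1 and 2. Retnlg, a resistin-like gene of granulocytes, was at 0, 0.162 and 0.201 FPKM in those MUT columns, against 8.11, 8.13 and 18.2 FPKM in those WT columns. Hbb-bs, an adult beta globin gene of red cells, was at 10.9, 35.6 and 13.4 FPKM in those MUT columns, against 135, 158 and 136 FPKM in those WT columns. In MUT all of them are low, but in WT their highest library is column 1 or 2, whereas that of Pcp4 is column 0. The stefin genes are near-identical copies of each other, so their counts may be shared between them.

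**Figure D4:**
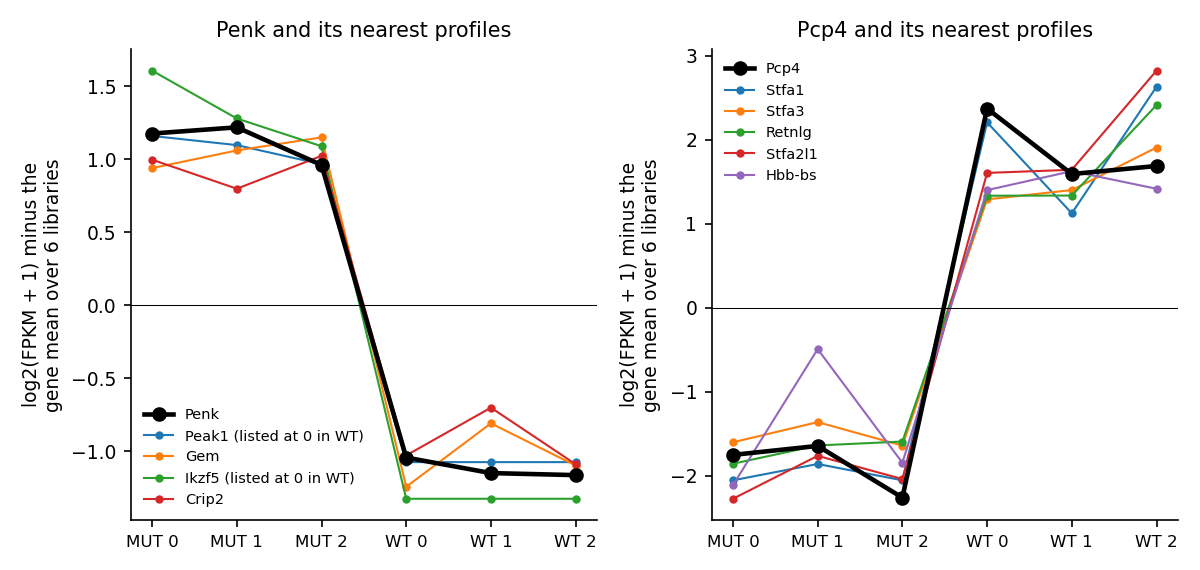
Centred log2(FPKM + 1) of Penk (left) and Pcp4 (right) with genes nearest in profile, over the 3 MUT libraries and then the 3 WT libraries. The genes nearest to Penk lie within a root-mean-square difference of 0.264, those nearest to Pcp4 within 0.663.

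Granulocyte and erythroid markers moved in the same direction as Pcp4, and those of macrophages and leukocytes gave no call. In all, 2.59% of the genes tested were called lower and 3.48% higher. The summed level of 5 measured granulocyte markers was 6.62, 0.837 and 2.52 FPKM in MUT columns 0, 1 and 2, against 103, 64.9 and 190 FPKM in WT columns 0, 1 and 2, and 2 of the 3 tested (S100a8 and S100a9) fell. The sum of 7 erythroid markers was 14.9, 49.4 and 22.6 FPKM in MUT columns 0, 1 and 2, against 196, 221 and 200.6 FPKM in WT columns 0, 1 and 2, and 5 of the 5 tested fell. Without MUT column 0 the same 2 and 5 genes were called lower. With the mean Y-linked level as a covariate, 0 of 3 granulocyte genes and 3 of 5 erythroid genes were. The sum of 5 macrophage and leukocyte markers was 9.57 to 36.7 FPKM in MUT and 31.4 to 64.3 FPKM in WT, which overlap, and 0 of the 4 tested were called. Among these, Ptprc and Lyz2 were lower in MUT without overlap, with differences of -1.05 and -1.96 (limma adjusted p = 0.069 and 0.064). Cd68 and Csf1r overlapped between groups, with differences of 0.43 and -0.10. Within WT, the granulocyte sum was highest in column 2 and the erythroid sum in column 1, while Pcp4 was highest in column 0. The part of these cells in the Pcp4 difference was not tested.

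The sums of muscle markers were lower in MUT, but each sum was mostly 1 gene. The sum of 9 skeletal muscle markers was 56.1 to 79.6 FPKM in MUT and 152 to 178 FPKM in WT, of which Tnnt3, a fast troponin gene, made up 41.6 to 63.5 FPKM in MUT and 123 to 162 FPKM in WT. Tnnt3 was the 1 of 5 tested genes that fell. Tnni2 was also lower in MUT without overlap, with a difference of -0.68 (limma adjusted p = 0.082), whereas Acta1, Ckm and Myh8 overlapped between the groups. The differences of all 5 were negative, from -1.43 to -0.25. For smooth muscle and pericytes the sum of 5 markers was 82.3 to 104 FPKM in MUT and 131 to 179 FPKM in WT, of which Acta2, a smooth muscle actin gene, made up 68.4 to 96.2 FPKM in MUT and 123 to 168 FPKM in WT. Acta2 was the 1 of 2 tested genes that fell, and the other, Tagln, had a difference of -0.01. Both calls held without MUT column 0, and neither held with the mean Y-linked level as a covariate. The share of all tested genes called lower, given above, was 2.59%. Whether muscle takes part in the Pcp4 difference was not tested.

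Neuronal markers were near 0 in both groups. The sum of 7 measured neuronal markers was 0.51 to 1.10 FPKM in MUT and 0.216 to 0.428 FPKM in WT, none reached the filter, and Elavl3, Stmn2 and Nefl were listed at 0 in every WT library. Penk and Pcp4, genes best known from neurons, were measured at 14.4 FPKM or more in WT libraries in which the neuronal markers summed to at most 0.428 FPKM. Every MUT library had a higher neuronal sum than every WT library. The part of neurons in the Penk and Pcp4 differences was not tested.

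Mesenchymal markers did not move together. Of 11 fibroblast and perichondrium markers 9 were tested, of which Prrx1 and Twist1 rose and Dcn and Lum fell, and the summed level was 1044 to 1590 FPKM in MUT and 1504 to 1779 FPKM in WT. Among all genes tested, 3.48% were called higher and 2.59% lower. Without MUT column 0 the calls were Twist1 higher and Lum lower, and with the mean Y-linked level as a covariate there were 0. Those fits called 666 of 13957 and 236 of 14012 genes, in either direction. The sum of 4 adipocyte markers was 16.8 to 26.1 FPKM in MUT and 7.71 to 9.21 FPKM in WT, and Pparg was the 1 of 2 tested genes that rose. Without MUT column 0 both Pparg and Fabp4 were called higher, and with the covariate neither was. The part of either list in the Penk difference was not tested.

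**Figure D5:**
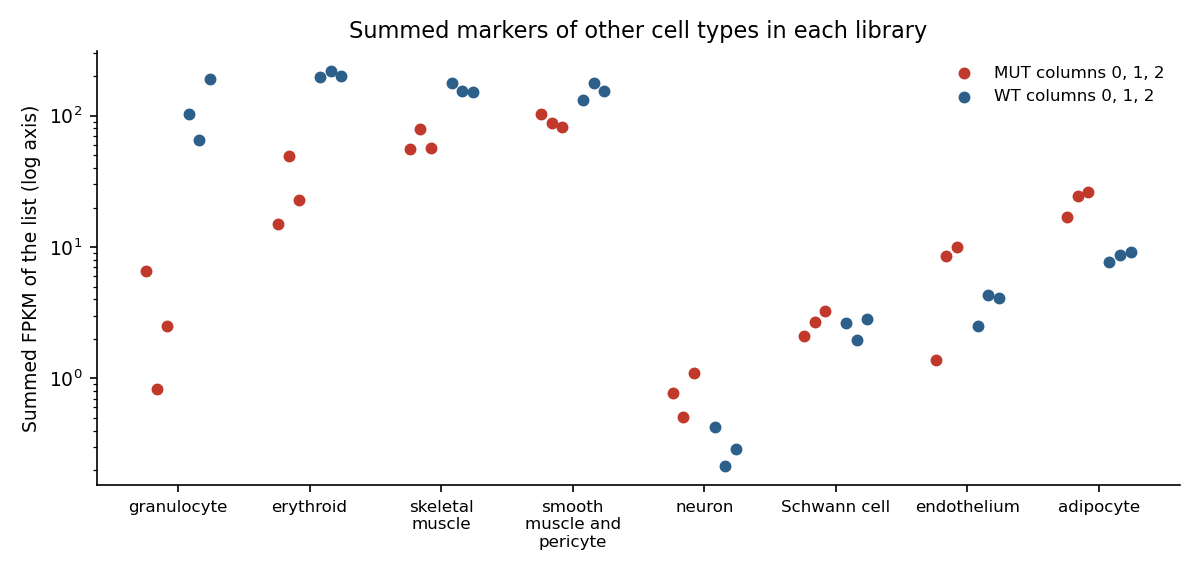
Summed FPKM of the markers of each cell type on a log axis, per library, with MUT left of WT in each cell type. Granulocyte sums are 0.837 to 6.62 FPKM in MUT and 64.9 to 190 FPKM in WT, erythroid sums 14.9 to 49.4 FPKM in MUT and 196 to 221 FPKM in WT, and neuronal sums at most 1.10 FPKM.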

How the data were processed

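RNA was sequenced as 50-base single-end reads from ribosomal-RNA-depleted stranded libraries, per the labels' protocols. The authors deposited 1 table of FPKM for 27734 genes in 6 columns. STAR, Cufflinks, Cuffdiff and mm10 are named per the submitters' processing notes, and CLC Genomics Workbench per the labels' protocols. Versions, scaling between libraries and the strand setting of counting are not given in the sources used here. Read counts were not used here, so depth per library is unknown and no counting interval is given. Column totals were 571180 to 631534 FPKM.

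The labels number libraries 0, 1 and 3 and the columns are numbered 0, 1 and 2, which leaves 4 columns with a known sample and 2 with a known group only. For positions and gene types, 27578 IDs (99.4%) were matched to GENCODE M21.

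FPKM was transformed as log2(FPKM + 1), and genes averaging 1 FPKM or more were fitted with limma 3.58.1 in R 4.3.3 (group as the only term, eBayes with trend, two-sided) with Benjamini-Hochberg adjustment over all 14012 genes and a threshold of 0.05. "Rose" and "fell" are used of genes past it. The fit was tested on simulated data. With 3 libraries a group an exact permutation test cannot pass 0.05, so none is given.

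Genes named are Penk and Pcp4, the check genes, members of 9 pathway lists and of the marker lists, and the 5 nearest profiles. They also include 3 neighbours in the order, 3 on each side on the chromosome and genes listed within 100 kb. Of 85 pathway genes, 78 were measured and 50 tested. Penk, Pcp4 and all lists were chosen with earlier results of these data known. Oprm1, Pcsk1n, Dpp3, Sst, Vip, Crh and Cartpt were not analysed here, and results for some other genes are not reported here. Alternatives were other pseudocounts (0.1, 0.5), filters (none, 5 FPKM), scalings (median of ratios, quantiles), a robust prior, library weights, protein-coding genes only, the mean log2(FPKM + 1) of 4 Y-linked genes as a covariate, a replicate block and each library left out. Leaving out genes listed at 0 throughout a group, and refitting the marker lists and neighbours without MUT column 0 or with the Y-linked covariate, were added after seeing the data.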

Additional observations from a re-analysis of the deposited data

How the results depend on the processing

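The directions of Penk and Pcp4 were the same under every alternative run. The Penk difference was 2.35 with the mean Y-linked level as a covariate and 2.18 to 2.31 with each library left out in turn. The Pcp4 difference was -4.60 and -4.16 at pseudocounts of 0.1 and 0.5, since its MUT levels are near 1 FPKM, and -3.91 to -3.52 with each library left out. The rank of Penk was 22 by limma's moderated statistic, 282 at a pseudocount of 0.1, 41 without genes listed at 0 in a whole group, 13 among protein-coding genes without those, and 104 to 171 with each library left out. The rank of Pcp4 under these settings was 13, 55, 9, 6 and 20 to 36. The count of genes changed, 850 as reported, was 461 with no filter, 1488 with library weights, 1373 over protein-coding genes, 236 with the Y-linked covariate and 174 to 666 with each library left out. Pathway genes higher (1 as reported) numbered 0 with no filter, 0 at a minimum mean of 5 FPKM, 2 with library weights, 4 over protein-coding genes, 6 with the Y-linked covariate and 0 to 2 with each library left out. Pathway genes lower (4 as reported) numbered 1 with no filter, 2 at a minimum of 5 FPKM, 1 with the Y-linked covariate and 0 to 1 with each library left out. With the column number as a replicate block, 60 genes changed, 0 pathway genes were higher and 0 lower. Same-numbered columns did not deviate together (correlations -0.033, -0.042 and -0.023). This gives no sign that the numbers pair the libraries, but with 3 libraries a group it cannot exclude pairing. The causes of these changes were not tested. With no read counts, the error of the low Pcp4 levels in MUT cannot be given.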
